A study of Mus musculus with 15 samples.

Results

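Tubulin genes were followed here as 10 listed members, matched by symbol in the count table, of 55367 gene symbols in all. They are the alpha-tubulin genes Tuba1a, Tuba1b, Tuba1c and Tuba4a, the beta-tubulin genes Tubb2a, Tubb2b, Tubb3, Tubb4b and Tubb5, and the gamma-tubulin gene Tubg1. All 10 were found, and 7 passed the filter on low counts, as did 3800 genes in all. Libraries of either sort group alone can meet that filter, so which genes of a list were tested depends in part on the groups compared. The libraries came from the medial cortex of C57BL/6 mice at E11.5, a day in mid-gestation when the first cortical neurons form, and the labels name no mutant allele, transgene or other agent beside the staining. Cells were dissociated, stained with annexin V, which binds phosphatidylserine exposed on the cell surface, and with propidium iodide (PI), which enters cells with an open membrane, and then sorted. The AnnexinV-positive group (6 libraries) bound annexin V and excluded PI, and the double-negative group (6 libraries) was negative for both. Nothing in the labels says how many embryos or sorts the replicates came from, so p-values measure the spread between libraries, which may be in part technical.

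Microtubules are hollow polymers of alpha- and beta-tubulin dimers, and gamma-tubulin sits in the ring complex that starts new ones. The dimer partners are made from families of genes, called isotypes. Their proteins differ mainly at the end, where the negatively charged tail is bound and modified by other proteins, while the coding bases also differ elsewhere. In the embryonic cortex Tuba1a, Tubb2a, Tubb2b and Tubb3 are known as isotypes of differentiating neurons, while Tuba1b, Tuba1c, Tubb4b and Tubb5 are also made in dividing cells and in most tissues. The comparison of the sort groups was read along that division.

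The coding ends of the beta-tubulins show how far each isotype differs there from Tubb5. How far counts can be read separately depends on sharing over the whole transcript, given below. Shown are the last 75 coding bases before the stop codon from GENCODE M21 transcripts on GRCm38, and capitals mark bases that differ from Tubb5, or have no partner in it, in an alignment of the whole coding regions.
Tubb5, chr17:35834985-35835059, minus strand: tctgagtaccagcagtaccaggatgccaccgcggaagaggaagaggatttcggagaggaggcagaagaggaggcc
Tubb4b, chr2:25222311-25222385, minus strand: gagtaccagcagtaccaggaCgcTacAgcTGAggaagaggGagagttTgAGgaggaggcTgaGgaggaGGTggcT
Tubb2a, chr13:34074471-34074545, minus strand: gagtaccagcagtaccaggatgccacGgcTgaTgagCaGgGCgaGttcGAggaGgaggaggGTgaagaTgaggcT
Tubb2b, chr13:34127474-34127548, minus strand: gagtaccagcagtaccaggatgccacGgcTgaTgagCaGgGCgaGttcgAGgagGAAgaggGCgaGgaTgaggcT
Tubb3, chr8:123421605-123421679, plus strand: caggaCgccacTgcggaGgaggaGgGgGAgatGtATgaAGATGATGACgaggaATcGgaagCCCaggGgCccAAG

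Tubb3 was the most divergent of the beta ends shown, with 31 capitals, and was 81.5% identical to Tubb5 over the coding region. Tubb2a was 96.5% identical to Tubb2b. Among the alpha-tubulins, the coding regions of Tuba1a and Tuba1b were 98.3% identical, and Tuba1c was 97.1% identical to Tuba1a. Of all stretches of 50 bases in the Tuba1a transcript, 75.5% also occur in a transcript of another annotated gene, against 83.1% for Tuba1b and 61.0% for Tuba1c. Tubb3 shared 0% and Tubb5 0.12% of such stretches. The read length is not given in the sources used here, and with stretches of 100 bases the shares were 65.85% for Tuba1a, 73.0% for Tuba1b and 0% for both Tubb3 and Tubb5. The counts of some members bear the same mark. Tubb3 and Tubb5 had whole counts in all 12 libraries, whereas Tubb2a plus Tubb2b came to a whole number in 12 of 12 libraries (tolerance 0.02) although each alone did so in 3. Tuba1a plus Tuba1b plus Tuba1c came to a whole number in 3 of 12 libraries, so fractional counts remained in that sum, and the copies also share stretches with other annotated genes such as AC157548.1 and Gm17383. Counts of the Tuba1 copies, and of the Tubb2 copies, are therefore uncertain one by one and are also given as sums. Tuba4a shared 48.8% of its stretches, mainly with the overlapping gene Stk16, and Tubb4b shared 55.5%, mainly with the pseudogenes Tubb4b-ps1 and Tubb4b-ps2. Sharing did not always go with fractions: counts were not whole in 2 libraries for Tubb4b and in 0 for Tuba4a and Tubg1.

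**Figure D1:**
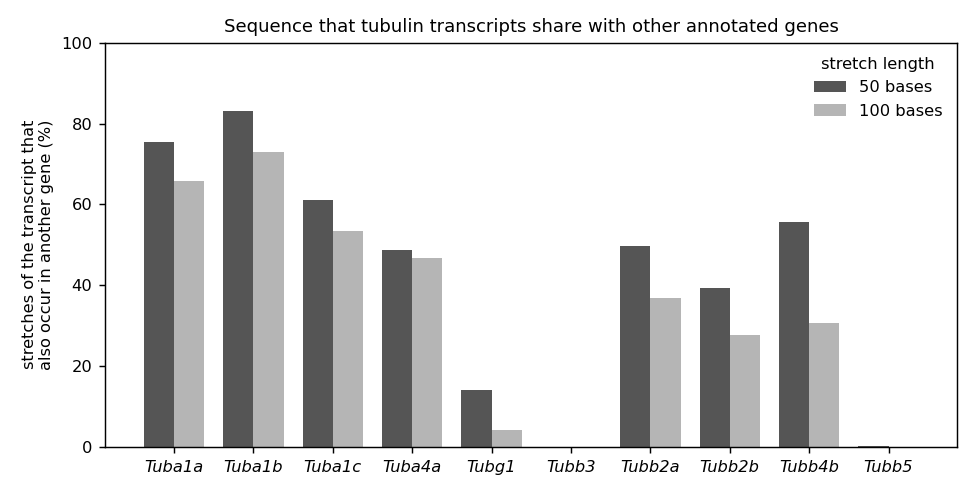
Share of each tubulin transcript (%) whose stretches of 50 (dark bars) or 100 bases (light bars) also occur, on either strand, in a transcript of another annotated gene. Tuba1a, Tuba1b and Tuba1c share 75.5%, 83.1% and 61.0% at 50 bases, and the bars of Tubb3 (0%) and Tubb5 (0.12%) are not visible.

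Total counts ran from 88195 to 329818 in double-negative and from 190698 to 444420 in AnnexinV-positive libraries, of which 21.5% to 43.6% fell on an rRNA gene, CT010467.1. Values below are in CPM, the count divided by the total over the tested genes and a TMM scaling factor and set to a common total, so that 1 count was worth between 2.41 CPM in the deepest and 15.4 CPM in the shallowest library (double-negative library 3). In the double-negative group, libraries 1, 2 and 3 gave 12% to 30.8% of their reads to haemoglobin genes, and no other library gave more than 0.00964%. The 10 members took 0.580% to 1.16% of all counts of a library, and their sum was 11813 ± 2548 CPM in double-negative and 7457 ± 883 CPM in AnnexinV-positive libraries (SD, n = 6 each). Markers of dorsal telencephalon were present in both groups, with summed levels of 737 to 1094 CPM in double-negative and 357 to 996 CPM in AnnexinV-positive libraries. Markers of ventral forebrain summed to 170 to 1413 CPM in double-negative and 0 to 248 CPM in AnnexinV-positive libraries. Markers of Cajal-Retzius neurons summed to 92.1 to 112 CPM in double-negative libraries 1 to 3, 639 to 689 CPM in double-negative libraries 4 to 6 and 10.3 to 199 CPM in AnnexinV-positive libraries. Vessel markers were at 0 CPM in 5 double-negative libraries and reached 415 CPM in AnnexinV-positive libraries, mesenchyme markers reached 867 CPM and macrophage markers 654 CPM there, and the part of all these cells in the results was not tested.

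Tuba1a, the main alpha-tubulin of newly formed neurons, fell in AnnexinV-positive cells and was the member that passed the test; the other 6 tested members did not. Tuba1a was at 3919 CPM in the lowest, 6853 at the median and 8968 CPM in the highest double-negative library, and at 1866, 2256 and 2905 CPM in AnnexinV-positive libraries. Every AnnexinV-positive library was below every double-negative one. The mean was 6669 ± 2256 CPM for double-negative cells and 2264.5 ± 383 CPM for AnnexinV-positive cells (SD, n = 6 each). The log2 fold change, AnnexinV-positive minus double-negative, was −1.56 (SE 0.23, 95% interval −2.03 to −1.08, adjusted p = 0.000291 in edgeR's quasi-likelihood test), or 2.94-fold lower. It had the fifth smallest p of the 3800 genes tested. Of all genes tested 1.87% passed the test, 1.47% as lower, and for 1.24% the AnnexinV-positive libraries lay wholly below the double-negative ones. Within replicates 1 to 3 alone the log2 fold change was −1.65 (SE 0.29, adjusted p = 0.00867 in edgeR), where 1.73% of the genes tested passed. Within replicates 4 to 6 alone it was −1.39 (SE 0.30, adjusted p = 0.0663 in edgeR), which did not pass, as 0.266% of the genes tested did there. Tuba1a lies on chromosome 15 of GRCm38 at 98949837 to 98953703, on the minus strand, as a protein-coding gene with 4 exons in the transcript used.

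**Figure D2:**
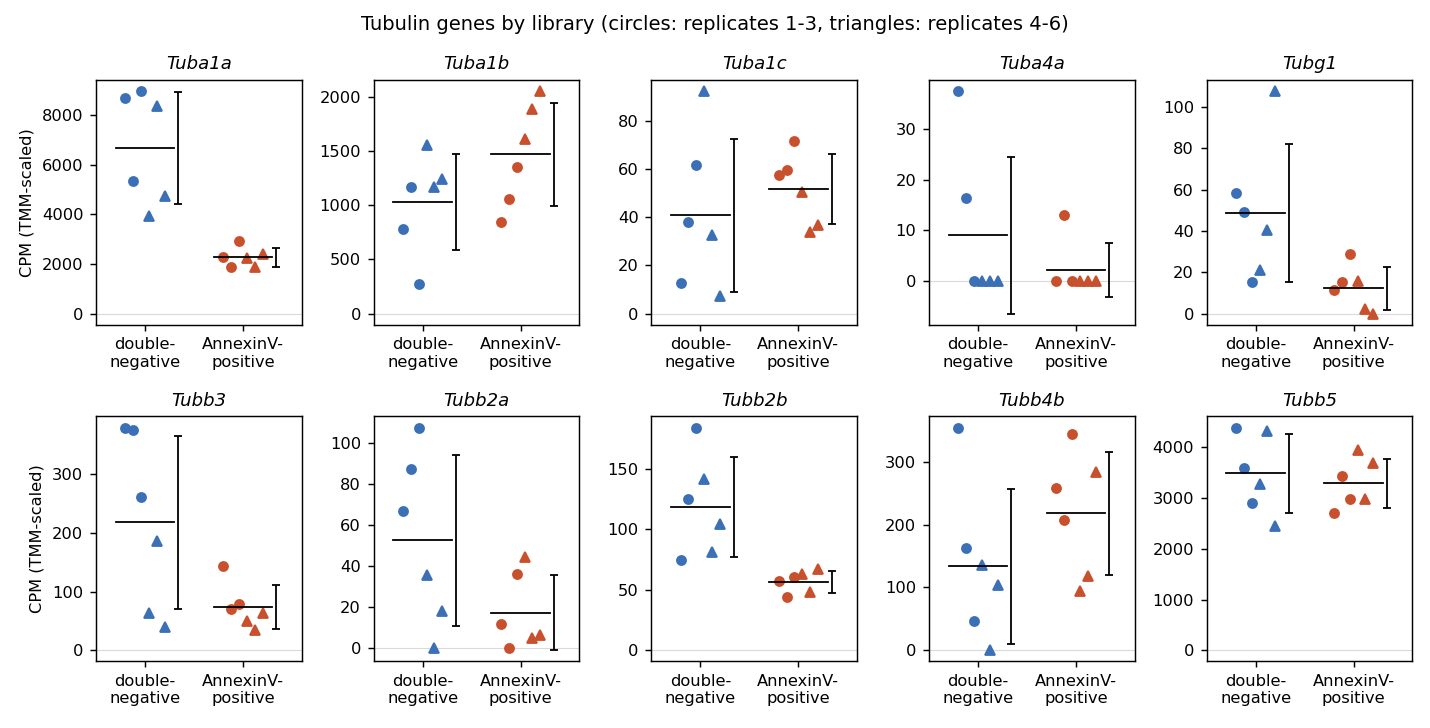
CPM (TMM-scaled) of the 10 tubulin genes in each library, by sort group. Circles are replicates 1 to 3, triangles are replicates 4 to 6, the horizontal line is the group mean and the bar beside it is ± 1 SD (n = 6). The 6 AnnexinV-positive libraries lie below all double-negative libraries for Tuba1a and Tubb2b, and the groups overlap for the other 8 genes.

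The neighbouring copies Tuba1b and Tuba1c, which are expressed broadly, had positive values that did not pass the test. Tuba1b ranged from 276 CPM through a median of 1168 to 1555 CPM in double-negative and from 844 through 1487 to 2058 CPM in AnnexinV-positive libraries. Its log2 fold change was 0.50 (SE 0.29, 95% interval −0.10 to 1.10, adjusted p = 0.429 in edgeR), with 4 of 6 AnnexinV-positive libraries above the double-negative median. Tuba1b was higher in replicates 4 to 6 than in replicates 1 to 3 in both groups on average: 1323 ± 205 against 743 ± 448 CPM in double-negative and 1855 ± 222 against 1087 ± 258 CPM in AnnexinV-positive libraries (SD, n = 3 each). Tuba1c was a minor copy, with 7.19 to 92.3 CPM in double-negative and 33.8 to 71.6 CPM in AnnexinV-positive libraries. Its log2 fold change was 0.40 (SE 0.69, 95% interval −1.02 to 1.82, adjusted p = 0.817 in edgeR).

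Because the 3 copies share reads, their counts were also summed before the fit. The sum ranged from 5558 to 9584 CPM in double-negative and from 2984 to 4511 CPM in AnnexinV-positive libraries. The groups did not overlap, as for 1.24% of all genes tested in that direction, and the log2 fold change of the sum was −1.03 (SE 0.20). Tuba1a is part of this sum and did not overlap by itself, so the sum is no separate result. This sum does not depend on how reads were divided among the 3 copies, but it was whole in only 3 of 12 libraries and may still depend on reads shared with other genes. Tuba4a, which adult muscle and brain express, had 17 counts in all: 9 and 3 in double-negative libraries 1 and 2 and 5 in AnnexinV-positive library 2. The other 9 libraries had 0 counts of Tuba4a, which allows up to 46.1 CPM in the shallowest of them.

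Among the beta-tubulins, Tubb3, the class III isotype used as a neuronal marker, had a difference of the same size as Tuba1a but a wider spread. Tubb3 ranged from 39.6 CPM through a median of 224 to 379 CPM in double-negative libraries and from 33.8 through 67.0 to 144 CPM in AnnexinV-positive libraries. The groups overlapped. The log2 fold change was −1.59 (SE 0.50, 95% interval −2.62 to −0.55, adjusted p = 0.101 in edgeR), which missed the threshold. With no adjustment 3 members, Tuba1a, Tubb3 and Tubb2b, were under 0.05, as were 15.7% of all genes tested. The double-negative libraries were themselves divided by replicate number: replicates 1 to 3 had 379, 376 and 261 CPM, and replicates 4 to 6 had 63.9, 186 and 39.6 CPM. Those first 3 are the libraries rich in haemoglobin. With haemoglobin and rRNA genes removed from the counts, the Tubb3 log2 fold change was −1.57 (SE 0.50, adjusted p = 0.104 in edgeR). The part of blood cells in the Tubb3 value was not tested.

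Within replicates 1 to 3 the Tubb3 log2 fold change was −1.79 (SE 0.46, adjusted p = 0.0756 in edgeR), and within replicates 4 to 6 it was −0.95 (SE 0.82, adjusted p = 0.780 in edgeR). Once double-negative libraries 1 to 3 were left out, the value was −0.32 (SE 0.65, adjusted p = 0.922 in edgeR). Tubb3 passed when double-negative library 4 or library 6 was left out (adjusted p = 0.0483 and 0.0355 in edgeR). The difference between the replicate sets itself was tested as an interaction with the sort group and did not pass for Tubb3 (0.91, SE 0.84, adjusted p = 0.965 in edgeR). In that test 0.0789% of all genes passed, and 0 tubulin members did so. With no adjustment the interaction was under 0.05 for 0 of the 7 tested members and for 6.29% of all genes. Tubb3 lies on chromosome 8 at 123411424 to 123422015, on the plus strand.

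Tubb2a and Tubb2b are close copies that are abundant in migrating and growing neurons. Tubb2b was tested and did not pass, and Tubb2a was not tested. Tubb2b ranged from 74.99 CPM through a median of 115 to 184 CPM in double-negative libraries and from 43.9 through 59.1 to 67.2 CPM in AnnexinV-positive libraries. The AnnexinV-positive libraries lay wholly below the double-negative ones for Tubb2b, as for 1.24% of all genes tested. Its log2 fold change of −1.04 (SE 0.47, 95% interval −2.01 to −0.07), however, had an adjusted p = 0.282 in edgeR. Tubb2a was below the filter, with 49.43 estimated counts in double-negative and 30.32 in AnnexinV-positive libraries. It lay between 0 and 107 CPM in double-negative and between 0 and 44.1 CPM in AnnexinV-positive libraries. Its double-negative level was 87.1 ± 20.4 CPM in replicates 1 to 3 and 17.8 ± 17.7 CPM in replicates 4 to 6 (SD, n = 3 each), a division like that of Tubb3. In AnnexinV-positive libraries it was 15.8 ± 18.3 CPM in replicates 1 to 3 and 18.4 ± 22.3 CPM in replicates 4 to 6, so that Tubb2a was not lower there within replicates 4 to 6. The sum of both copies had a log2 fold change of −1.19 (SE 0.43), and its libraries overlapped between the groups.

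The general beta-tubulins did not pass in either direction. Tubb5, the class I isotype and the most abundant beta-tubulin in every library, ranged from 2449 CPM through a median of 3436 to 4391 CPM in double-negative and from 2704 through 3210 to 3950 CPM in AnnexinV-positive libraries. Its log2 fold change was −0.09 (SE 0.20, adjusted p = 0.871 in edgeR), and its 95% interval of −0.50 to 0.33 does not reach that of Tuba1a (−2.03 to −1.08). The sign of this small value turned under 6 of 26 alternatives, among them upper-quartile scaling (0.0017). Tubb4b, the class IVb isotype found in most tissues and in cilia, ranged from 0 through 120 to 354 CPM in double-negative and from 94.6 through 233 to 344 CPM in AnnexinV-positive libraries. Its log2 fold change was 0.63 (SE 0.53, 95% interval −0.45 to 1.72, adjusted p = 0.616 in edgeR). It was 1.19 without double-negative library 1, 0.37 without library 5, 1.39 without libraries 1 to 3, 0.20 without libraries 3 and 5 and 1.85 on the deposited length-scaled score, with adjusted p from 0.277 to 0.910 over all alternatives. The 0 stood in double-negative library 5, where a count of 0 allows up to 24.3 CPM.

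The neuronal and the general isotypes can be set against each other only per length, for which the authors' deposited length-scaled score was used. On this score Tuba1a was the highest of the 10 genes in both groups by its median, at 3626 in double-negative and 1430 in AnnexinV-positive libraries, followed by Tubb5 at 1283 and 1371 and Tuba1b at 662 and 991. In double-negative cells Tuba1a stood clear of Tubb5, and Tubb5 of Tuba1b, with no overlap of libraries, although Tubb5 and Tuba1b overlapped when CPM per kilobase of exon was used instead. In AnnexinV-positive cells these 3 genes overlapped with each other in that order, and all 3 stood clear of Tubb4b at 167. Tuba1a ranked between 14 and 26 among all gene symbols by score in double-negative libraries and between 28 and 94 in AnnexinV-positive ones. Tubb5 ranked between 34 and 76 and between 42 and 88. Lower in the order, Tubb3 (109 and 41.2), Tubb4b (79.6 and 167) and Tubb2b (52.0 and 28.9, double-negative and AnnexinV-positive medians) overlapped in the double-negative group, as did Tubg1, Tubb2a and Tuba1c below them. In AnnexinV-positive libraries Tubb2b stood clear of Tubg1 (8.51), while the other neighbours in the order below Tubb4b overlapped.

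Within the alpha family, Tuba1a made up 69.8% to 96.3% of the score in double-negative and 48.7% to 70.8% in AnnexinV-positive libraries. The means were 83.7 ± 9.61% and 59.4 ± 8.39% (SD, n = 6 each). The highest AnnexinV-positive library (1) reached just above the lowest double-negative one (4). Tuba1b took the complement, with 15.6 ± 9.34% and 39.2 ± 8.82%. The ratio of Tuba1a to Tuba1b ran from 2.43 through a median of 5.54 to 31.2 in double-negative libraries. In AnnexinV-positive libraries it ran from 0.963 through 1.52 to 2.58. The value of 31.2 came from double-negative library 3, the shallowest, with 18.01 estimated counts of Tuba1b. Since these copies share most of their sequence, the ratio rests on how the reads were divided between them. Within the beta family, Tubb3 held 6.91 ± 4.14% in double-negative and 2.84 ± 1.69% in AnnexinV-positive libraries, and Tubb5 held 82.1 ± 6.83% and 84.7 ± 5.77%. The ratio of the 4 neuronal to the 4 general isotypes ran from 1.01 through a median of 1.85 to 4.13 in double-negative libraries. The value of 4.13 again came from library 3. In AnnexinV-positive libraries the ratio ran from 0.481 through 0.543 to 0.821, with no overlap between the groups. Tuba1a made up most of the neuronal side: its double-negative median was 3626 against 109 for Tubb3, 52.0 for Tubb2b and 33.7 for Tubb2a. The ratio of these isotypes therefore also rests in part on how reads were divided among the Tuba1 copies. The ratio of Tubb3 to Tubb5 overlapped between the groups (0.0238 to 0.153 in double-negative and 0.0165 to 0.0779 in AnnexinV-positive libraries). These shares were computed over genes chosen with earlier results known, so no test was made of them.

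**Figure D3:**
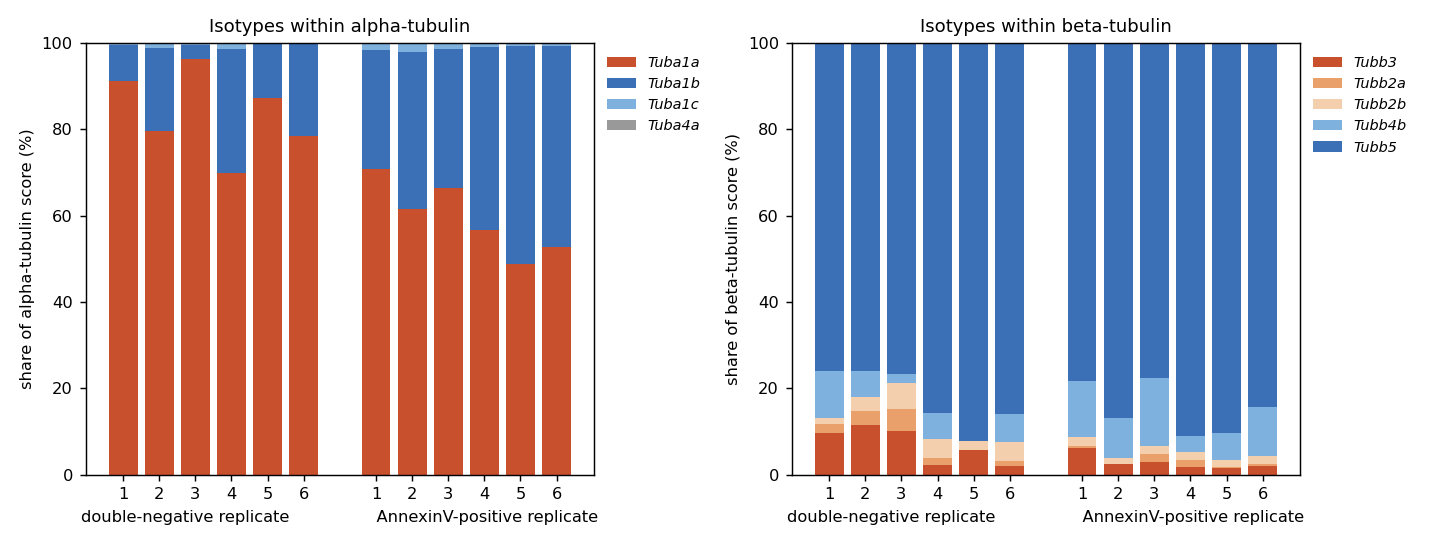
Share (%) of each isotype in the summed deposited length-scaled score of alpha-tubulin (left) and beta-tubulin genes (right), 1 bar per library. Tuba1a holds 69.8% to 96.3% of alpha-tubulin in double-negative and 48.7% to 70.8% in AnnexinV-positive libraries, while Tubb5 is the main beta-tubulin in every library.

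Neuronal markers were lower in AnnexinV-positive libraries, as was Tuba1a. The summed level of 17 neuronal markers other than Tubb3 was 1952 to 4744 CPM in double-negative and 238 to 1110 CPM in AnnexinV-positive libraries. All 17 had counts in double-negative libraries, and 2 of them, Nefl and Nefm, were at 0 in AnnexinV-positive libraries. Of the 11 tested genes of that list, Tubb3 included, 6 fell and 0 rose, where 1.47% of all genes tested fell, with a median log2 fold change of −2.16 against 0.06 over all genes tested. The filter can be met in double-negative libraries alone, so markers high there may have been tested on that ground. These values are therefore a description only. In double-negative libraries 1, 3 and 5 the marker sum was 4412, 4423 and 4744 CPM and Tuba1a was at 8695, 8968 and 8378 CPM. In double-negative libraries 2, 4 and 6 the marker sum was 2520, 1952 and 2391 CPM and Tuba1a was at 5328, 3919 and 4725 CPM. Thus the same 3 double-negative libraries were high for Tuba1a and for the neuronal markers. Tubb3 was highest in double-negative libraries 1, 2 and 3, followed by library 5. Libraries 3 and 5 were those with the fewest detected genes, 6571 and 6759, against 8100 to 10065 in the others. Without them the Tuba1a log2 fold change was −1.31 (SE 0.22, adjusted p = 0.00403 in edgeR).

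**Figure D4:**
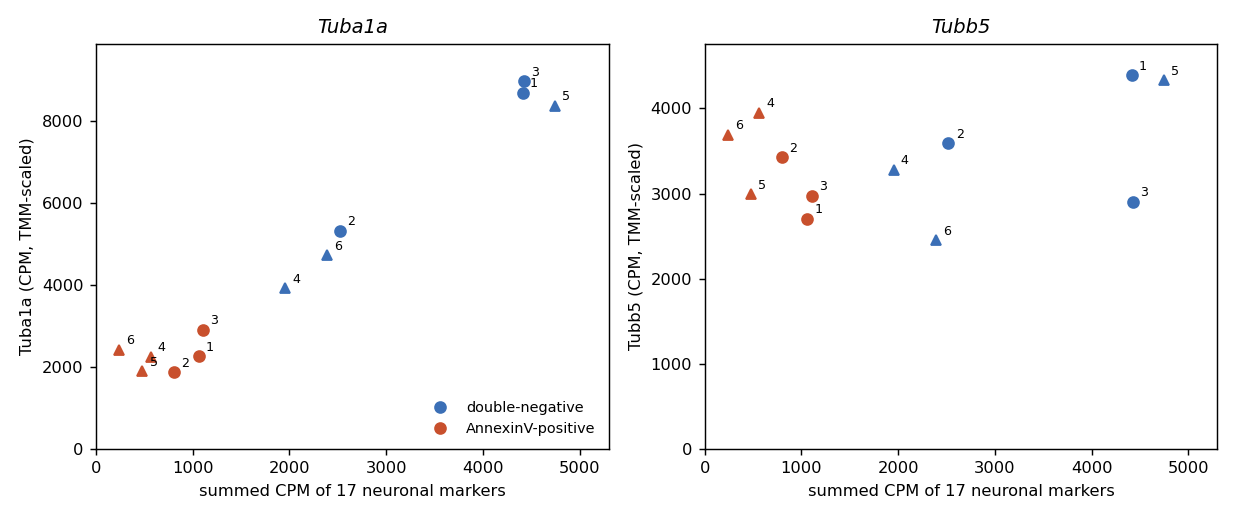
Level (CPM, TMM-scaled) of Tuba1a (left) and Tubb5 (right) against the summed CPM of 17 neuronal markers, 1 point per library with its replicate number; circles are replicates 1 to 3 and triangles 4 to 6. Double-negative libraries 1, 3 and 5 are highest on both axes for Tuba1a, whereas Tubb5 lies between 2449 and 4391 CPM over the whole range of the markers.

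Markers of neural progenitors ran the other way, with summed levels of 720 to 2193 CPM in double-negative and 2434 to 3274 CPM in AnnexinV-positive libraries, and 13 of 13 had counts in each group. Of the 12 tested, 1 rose and 0 fell, where 0.395% of all genes tested rose, and 10 of the 12 values were positive with a median log2 fold change of 1.11. Over all genes tested 2026 of 3800 values were positive, and the median was 0.06. In bulk libraries fewer neurons and less tubulin RNA per neuron cannot be told apart. The part of the neuronal and progenitor makeup in the tubulin values was not tested.

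Tubg1, the gamma-tubulin of centrosomes, was below the filter and was read from its counts alone. The double-negative group held 62 counts, of which library 6 gave 30, and the deeper AnnexinV-positive group held 22. Tubg1 ranged from 15.4 through a median of 44.7 to 108 CPM in double-negative and from 0 through 13.49 to 28.7 CPM in AnnexinV-positive libraries, and the groups overlapped. Of its stretches of 50 bases, 14.1% occur in other genes, mainly Tubg2, which had 0 counts.

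Of 10 further tubulin genes, 5 had counts and 1 passed the filter. Tubb4a, a class IV isotype of neurons and oligodendrocytes, had 43.5 to 179 CPM in the 6 double-negative libraries with a median of 91.0, and 0 to 53.6 CPM with a median of 3.62 in AnnexinV-positive libraries. Its 25 AnnexinV-positive counts came from 3 libraries, 17 of them from library 4. The log2 fold change was −2.89 (SE 0.86, adjusted p = 0.0769 in edgeR). Without AnnexinV-positive library 4, the highest of its group, Tubb4a was past the threshold at −4.25 (adjusted p = 0.0152 in edgeR), with 8 counts left in that group. In that fit Tubb4a met the filter through double-negative libraries alone, so the call is no separate result. In DESeq2, with all libraries, Tubb4a also passed (−2.97, adjusted p = 0.0232). Tubb6 had 7 counts, Tubd1 15 (the delta-tubulin), Tube1 19 (the epsilon-tubulin) and Tuba3a 1. Tuba3b, Tuba8, Tubal3, Tubb1 and Tubg2 had 0 counts in all 12 libraries, which allows up to 7.23 CPM in the deepest and 46.1 CPM in the shallowest.

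The genes that fold tubulin did not pass the test. Of 22 folding genes, made up of cofactors, prefoldin and subunits of the CCT chaperonin that folds alpha- and beta-tubulin, 17 were tested and 0 passed, against 1.87% of all genes tested. Their median log2 fold change was 0.30, against 0.06 over all genes. With no adjustment 2 of them, Cct8 and Tbcc, were under 0.05, against 15.7% of all genes tested. Cct8, a CCT subunit, had 0.94 (SE 0.32, adjusted p = 0.123 in edgeR), and Cct5 had 0.56 (SE 0.28, adjusted p = 0.328 in edgeR). Tbcc, the cofactor that acts last in dimer assembly, had −1.60 (SE 0.70, adjusted p = 0.257 in edgeR). Of 19 genes of the gamma-tubulin ring complex and its recruitment, 6 were tested and 0 passed, and with no adjustment 1 was under 0.05, again beside 15.7% of all genes. That was Pcnt, the centrosome scaffold pericentrin, with 1.74 (SE 0.70, adjusted p = 0.204 in edgeR).

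Among enzymes that modify tubulin, Atat1, which acetylates alpha-tubulin inside the microtubule, fell. Atat1 ranged from 78.1 CPM through a median of 184 to 221 CPM in double-negative and from 23.3 through 37.3 to 75.7 CPM in AnnexinV-positive libraries. The groups did not overlap for Atat1, as for 1.24% of all genes tested in that direction. Its log2 fold change was −1.91 (SE 0.48, adjusted p = 0.0295 in edgeR), but the call was lost in 16 of 26 alternatives, among them the fits without double-negative library 1, 3, 5 or 6 and those without AnnexinV-positive library 1, 2, 3 or 5 (adjusted p = 0.0511 to 0.0915). Of the 24 modifying enzymes listed, 4 were tested and 1 passed, as lower, where 1.47% of all genes tested did. Atat1 met the filter through the double-negative libraries, so this count depends in part on the group where Atat1 is high. The deacetylase genes Sirt2 (−0.84, SE 0.86) and Hdac6 (0.26, SE 0.80) did not pass, with adjusted p of 0.694 and 0.911 in edgeR.

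Among 14 severing and plus-end proteins, 8 were tested and 1 passed, against 1.87% of all genes tested. Clasp2, which stabilises growing plus ends, fell from 381 ± 96.2 to 170 ± 29.7 CPM (SD, n = 6 each). Its libraries did not overlap (252 to 504 against 135 to 221 CPM), as for 1.24% of all genes tested in that direction. Its log2 fold change was −1.17 (SE 0.28, adjusted p = 0.0249 in edgeR). This call was lost in 14 of 26 alternatives, among them the fits without double-negative library 1 or 5 and those without AnnexinV-positive library 1, 3 or 5 (adjusted p = 0.0505 to 0.0836). Its relative Clasp1 had −1.15 (SE 0.45, adjusted p = 0.191 in edgeR). Ckap5, a microtubule polymerase of the mitotic spindle, had 1.34 (SE 0.45, adjusted p = 0.126 in edgeR). The markers of mitosis had summed levels of 194 to 1970 CPM in double-negative and 1974 to 3513 CPM in AnnexinV-positive libraries, and 2 of the 10 tested rose, where 0.395% of all genes tested did. All 10 values were positive, with a median log2 fold change of 1.45. Over all genes tested 2026 of 3800 values were positive, and the median was 0.06. The part of mitotic cells in the Ckap5 and Pcnt values was not tested.

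**Figure D5:**
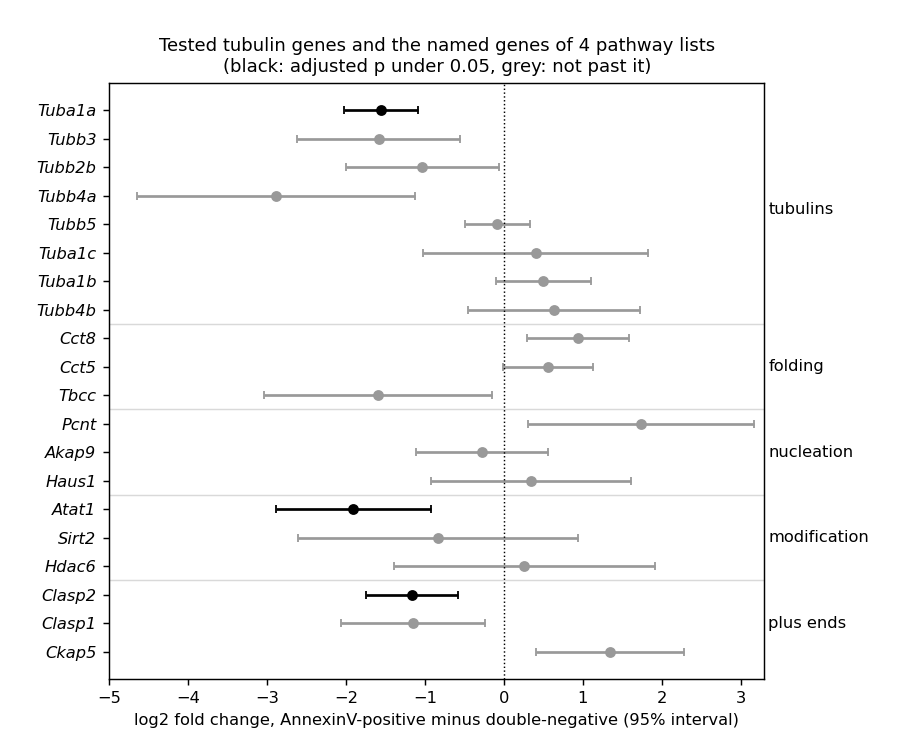
Log2 fold change (AnnexinV-positive minus double-negative, 6 libraries each) with its 95% interval for the tested tubulin genes and for the named genes of 4 pathway lists. Tuba1a, Atat1 and Clasp2 are drawn in black because they passed an adjusted p of 0.05, and the tubulins run from Tubb4a at −2.89 to Tubb4b at 0.63.

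Likeness of pattern was read as Pearson's r of log2 CPM over 12 libraries after each group's mean was subtracted, among 3680 tested genes, predicted genes and pseudogenes left out, and it is a description of the closest of many genes. The gene nearest to Tuba1a was Nrep, a gene of neuronal growth (r = 0.88, Spearman's rho = 0.82), which also fell (−1.70, adjusted p = 0.00547 in edgeR). Ddx21, Strbp, Camta1 and Jpt1 followed with r from 0.84 to 0.86. Within AnnexinV-positive libraries alone r with Tuba1a was 0.06 for Jpt1 and 0.61 to 0.87 for Nrep, Ddx21, Strbp and Camta1. Within double-negative libraries it was 0.89 to 0.97 for all of these. The gene nearest to Tubb5 was Clasp2 (r = 0.91, rho = 0.83), followed by Safb, Pbx3, Anapc5 and Abracl with r down to 0.81. For Tubb3 the nearest were Ap2m1 (r = 0.91, rho = 0.94), Zfp536, Bub3, Plxna2 and Ppp2r2a, none of which passed the test of the sort groups. Within AnnexinV-positive libraries alone r with Tubb3 was 0.48 for Bub3 and 0.63 to 0.88 for the others. Within double-negative libraries it was 0.89 to 0.97. Counts of low genes are few here, and all points share the depth and scaling of their library.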

How the data were processed

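The 12 sorted bulk RNA libraries were made with a modified smart-seq2 method, per the labels' protocols; the 3 samples with no sort label were not analysed here. The tools named per the submitters' processing notes are STAR, Trimmomatic, Seurat 4 and featureCounts, beside the builds GRCm38 and mm10, with no roles. How reads were divided between genes, the annotation and the strand setting: not given in the sources used here. The deposited counts are estimated counts, of which 8.84% of nonzero values were not whole, and were rounded for the tests; the authors' second table, named TPM, was used as a score, because its columns sum to between 764764 and 1835685. With no unique molecular identifiers mentioned, limits from a count of 0 (3 counts) cover counting error only.

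The test was edgeR 4.0.16 (R 4.3.3; quasi-likelihood, filterByExpr with minimum count 10 and minimum total 15, TMM, robust dispersion, sort group as the only term), two-sided, with Benjamini-Hochberg adjustment over all 3800 genes and a threshold of 0.05. It was tested on simulated data. The SE was taken as log2 fold change over the root of F; the prior count of log2 CPM was 2. Alternatives used DESeq2 1.42.0, and limma 3.58.1 on log2(score + 1). Within groups, libraries differed from each other by more than sampling noise (chi-square per degree of freedom 4.44 to 30.1). Sequences and positions come from GENCODE M21 on GRCm38, aligned with Biopython 1.88. The members, gene lists, their division into neuronal and general isotypes and the naming rule were chosen with earlier results of these data known. The rule names all members, further tubulin genes with counts, genes of the 4 pathway lists that passed or had the 3 smallest p, and the 5 genes most like Tubb3, Tuba1a and Tubb5. Markers given by name were chosen after their values were seen. Coding-end sequences of the alpha-tubulins are not reported here.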

Additional observations from a re-analysis of the deposited data

Results flagged for a closer look

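Tuba4a in AnnexinV-positive library 2 stood at 12.9 CPM, from 5 counts, while the other 5 libraries of its group were at 0 CPM. It was the 1 library far from the rest of its group among 20 sets of a member and a sort group, and chance alone flags about 1 in 20 such sets. That rate does not hold for this set, since with the other 5 libraries at 0 CPM any count would be flagged. The transcript used for Tuba4a overlaps Stk16, so its counts are uncertain.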

How the results depend on the processing

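Tuba1a was lower in 26 of 26 alternatives (−1.65 to −1.28) and passed in 25, the exception being replicates 4 to 6 alone (−1.39, adjusted p = 0.0663 in edgeR). In place of 71 genes, 237 passed with no filter on low counts, 281 in DESeq2, 11 within replicates 4 to 6, 46 without double-negative libraries 1 to 3, 32 with limma on the length-scaled score and 15 without double-negative libraries 3 and 5 (an alternative chosen after seeing the data); leaving out 1 library gave 49 to 126, the latter without double-negative library 4. The count of tubulin members past the threshold was 0 within replicates 4 to 6 and 1 to 2 without 1 library. Tubb3 had −1.85 to −1.33 without 1 library, and Tubb5 −0.16 to −0.01. The sign of Tubb5 turned with upper-quartile scaling (0.0017), no filter (0.085), replicates 4 to 6 (0.066), no double-negative libraries 1 to 3 (0.023), the length-scaled score (0.13) and library size alone (0.15). The cause was not tested. Median log2 fold changes of all genes were 0.06 in the main test, 0.14 with upper-quartile scaling, 0.28 with library size alone, 0.42 on the score and −0.20 in DESeq2; relative to them Tubb5 had −0.14, −0.14, −0.13, −0.29 and 0.09. Of the genes called, 15 were higher and 56 lower in the main test, 42 and 55 after upper-quartile scaling, and 52 and 32 by library size alone (also chosen after seeing the data, as was a minimum count of 5). With the replicate number as a block, Tuba1a had −1.50 (adjusted p = 0.000904 in edgeR), Tubb3 −1.33 and 71 genes passed, while Atat1 and Clasp2 did not (adjusted p = 0.0741 and 0.0651); correlations of same-numbered libraries of −0.01 to 0.08 gave no sign of pairing, and 1 of 6 double-negative libraries correlated best with its own number. Tuba1c within replicates 4 to 6 and Tubb4a within replicates 1 to 3 were not tested. On CPM per kilobase of exon the Tuba1a share differed by −23.6 in place of −24.3 percentage points. Tuba4a, Tubb2a and Tubg1 were below the chosen filter; with no filter in edgeR all 10 members were tested and Tuba1a alone passed.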
